A study of Mus musculus with 6 samples.

Results

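The genes described here are the receptors of the colony-stimulating factors and the ligand Csf1, which were taken by symbol from the deposited gene list. They are Csf1r, Csf1, Csf2ra, Csf2rb, Csf2rb2, Csf3r and Flt3, 7 of 28692 genes, and all 7 were found once. Live CD45+ cells, negative for the dead-cell dye DAPI, were sorted from brains of C57BL/6 mice over the course of experimental autoimmune encephalomyelitis (EAE), an induced model of autoimmune attack on the central nervous system. The protocol also names spinal cord. The groups were miR-155KO mice (KO) on days 0, 13 and 21 of that course and wild-type mice (WT) on the same days, with 5 mice stated per group. Day 0 is the baseline, the labels do not say whether those mice had been immunized, and only the libraries of days 13 and 21 are called EAE libraries. Each of the 6 groups was 1 droplet library of 3′ ends, so a KO value of any day has a single WT value beside it and no replicate check. The labels give neither the allele that removes miR-155 nor the age or sex of the mice. Titles carry a leading number that is shared within a day and differs between days, and whatever it stands for cannot be told apart from the day.

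Colony-stimulating factors are cytokines that keep myeloid cells alive and drive their growth and maturation. Csf1r is the receptor tyrosine kinase for CSF1 and IL-34, on which microglia depend for survival, and Csf1 encodes the first of these ligands. Csf2ra is the ligand-binding α chain of the GM-CSF receptor, and Csf2rb is the β chain that the receptors for GM-CSF, IL-3 and IL-5 share. Csf2rb2 is a second, mouse-specific β chain that pairs with the IL-3 receptor α chain. Csf3r is the G-CSF receptor of the neutrophil lineage, and Flt3 is the receptor tyrosine kinase of dendritic-cell precursors and early progenitors. GM-CSF from T cells is known as a pathogenic cytokine of EAE that acts on infiltrating monocytes.

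The microRNA that the KO mice lack is shown first, because the comparison of genotypes turns on it. It lies at chr16:84714143-84714165 on the plus strand of GRCm38.p6, and its sequence is credited to RefSeq. The capitals mark the seed, bases 2 to 8, which pairs with target sites.
mmu-miR-155-5p: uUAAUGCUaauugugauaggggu
The seed's 7-base match AGCATTA was searched on the sense strand of the longest annotated 3′ UTR of each gene (GENCODE vM21). It was present in 1740 of 20921 genes, or 8.32%, with a median UTR of 967 bases. Among the 7 genes, Csf1r held 1 match, at base 643 of its 1669-base UTR, and the other 6 held none. The UTRs of those 6 were of 2111 bases in Csf1, 602 in Csf2ra, 1816 in Csf2rb, 1810 in Csf2rb2, 602 in Csf3r and 430 in Flt3. A match is a description of the sequence and not evidence of repression.

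All 7 are protein-coding genes of the build mm10, for which the GENCODE vM21 annotation gives these positions. Csf1r lies at chr18:61100598-61132149 on the plus strand and Csf1 at chr3:107741048-107760469 on the minus strand. Csf2ra lies at chr19:61223957-61228429 on the minus strand. The β chain genes are neighbours on chromosome 15, with Csf2rb at chr15:78325752-78353847 on the plus strand and Csf2rb2 at chr15:78282507-78305721 on the minus strand. Csf3r lies at chr4:126024550-126044440 on the plus strand and Flt3 at chr5:147330741-147400489 on the minus strand. The longest transcripts of Csf2rb and Csf2rb2, of 4900 and 4740 bases, were identical at 90.8% of aligned bases, which raises the question whether their reads can be told apart. In the last 1000 bases, where 3′ libraries read, identity was 86.2% and 0 windows of 98 bases were shared exactly. Over the whole transcripts 7.18% of the Csf2rb windows and 7.43% of the Csf2rb2 windows were shared, so the 2 counts are largely separate, and a read from the shared stretches is uncertain.

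Raw counts were summed per library and class of cells and are given as CPM, the unique molecular identifiers (UMIs) of a gene scaled to counts per 1e+06 UMIs of that class. Levels are compared within a gene, never between genes. The libraries held 6321841 and 8566827 UMIs on day 0 (KO and WT), 18066205 and 20298806 on day 13, and 15504139 and 24243660 on day 21. Mir155hg, the host transcript of miR-155, had 0, 0 and 1 UMIs in the KO libraries of days 0, 13 and 21, against 2, 45 and 59 in the WT libraries. Cells were gated one by one from markers that hold none of the 7 genes. Of 20007 cells, 12.3% carried markers of more than 1 class and 3.01% of none, and both sets were left out of the class values. Related classes, such as monocyte/macrophage and cDC2 or mature and immature neutrophil, did not count as more than 1 here. A further 1064 cells (5.32%) lay near a gate's limit. The median microglia-like cell had 10 microglial markers and 0 monocyte markers detected, and the median monocyte/macrophage-like cell had 7 monocyte and 1 microglial marker. The median cDC2-like cell had 3 cDC2 and 4 monocyte markers, the median cell of the border macrophage gate had 3 of its own and 5 microglial markers, and immature neutrophil-like cells had 5 immature and 6 mature markers. Classes next to each other in lineage are therefore not sharply separated. Between 5 and 32 cell barcodes were shared by any pair of libraries.

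**Figure D1:**
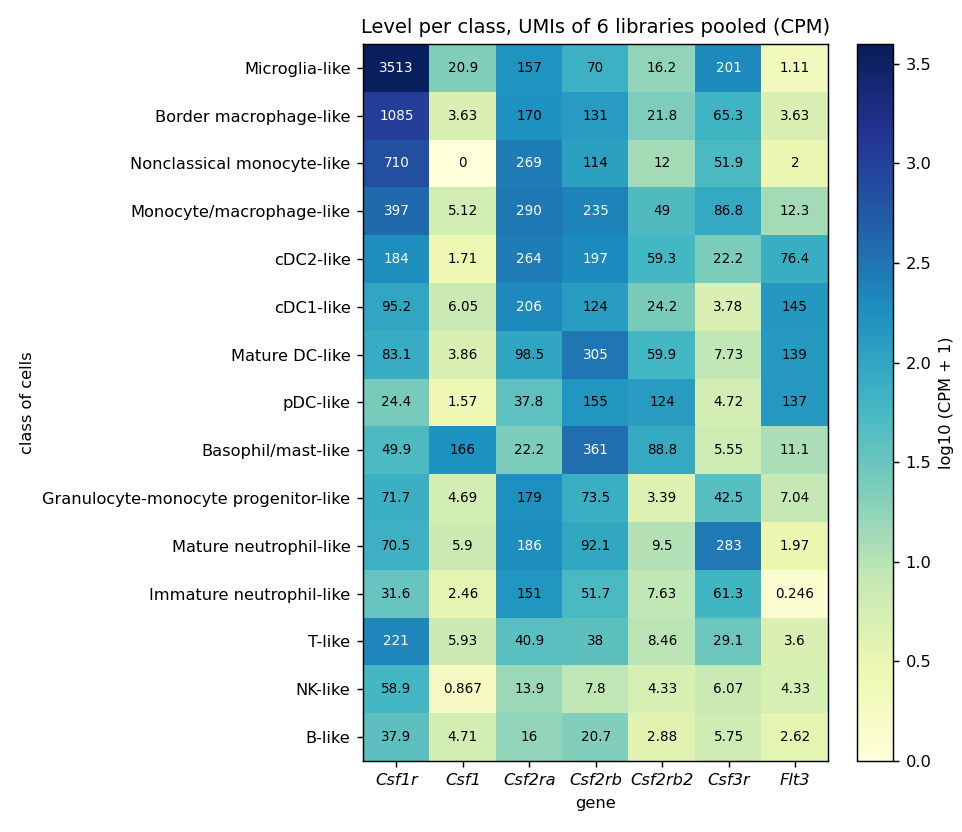
Level of each gene in each class of cells, as CPM over the pooled UMIs of all 6 libraries. Numbers in the cells are CPM and the colour is log10 (CPM + 1), so colours are to be compared down a column. Csf1r peaks in microglia-like cells at 3513 CPM, Csf3r in mature neutrophil-like cells at 283 CPM and Flt3 in cDC1-like cells at 145 CPM.

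Csf1r was highest in microglia-like cells and lower, but well above the lymphoid classes, in the monocytic ones. Microglia-like cells held 71.1% of its 97669 UMIs. Their level was 4537 and 4437 CPM on day 0 (KO and WT), 2251 and 2685 CPM on day 13, and 3081 and 2106 CPM on day 21. Every EAE library was lower than both day 0 libraries. The border macrophage gate followed with 1085 CPM over all libraries (95% Poisson interval 965 to 1215, 49 cells), and nonclassical monocyte-like cells with 710 CPM (638 to 788). Monocyte/macrophage-like cells had 391 and 285 CPM on day 0 (KO and WT), 457 and 456 CPM on day 13, and 309 and 319 CPM on day 21. The monocytic levels thus stayed between 285 and 457 CPM on all days, and 5 of 5 shared libraries had more Csf1r in microglia-like cells.

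In lymphoid and granulocytic cells the Csf1r level was set beside what the microglial markers found in them would carry. The part of microglial RNA in that level was not tested. B-like cells had 25.7 to 67.8 CPM. The microglial markers found in them, scaled to the ratio these markers have to Csf1r in microglia-like cells, would carry 85.4% to 142% of that level. The same figure was 60.1% to 123% in T-like cells and 98.6% to 169% in immature neutrophil-like cells. In monocyte/macrophage-like cells it was 15.8% to 26.3%, so most of their Csf1r stood above it. The Csf1r of T-like cells was uneven by cluster on day 13. Those of cluster 6, in which 65.4% of cells carried markers of more than 1 class, had 720 CPM in KO and 765 CPM in WT. Those of clusters 5 and 10 had at most 19.01 CPM in either library of that day. After each cell was thinned to 1490 UMIs, 93.5% to 99.7% of microglia-like cells held a Csf1r UMI, 27.6% to 47.4% of monocyte/macrophage-like cells and 1.89% to 7.87% of B-like cells. Without thinning the shares were 98.6% to 100% in microglia-like cells and 2.82% to 15.7% in B-like cells.

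Csf1, the ligand, was sparse, with 943 UMIs in all, and 43.9% of them were in microglia-like cells. The level there was 9.61 and 15.7 CPM on day 0 (KO and WT), 32.1 and 33.7 CPM on day 13, and 23.1 and 24.9 CPM on day 21. All 4 EAE libraries were above both day 0 libraries. Basophil/mast-like cells, 49 cells in all, had 30 UMIs, which is 166 CPM (112 to 238). By library there were 1 and 14 of these UMIs on day 0 (KO and WT), 0 and 2 on day 13, and 6 and 7 on day 21, from 2 to 21 cells each. The WT library of day 0 thus gave the most, from 9 cells. Monocyte/macrophage-like cells had 1.48 to 7.17 CPM.

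The GM-CSF receptor α chain Csf2ra was present across the myeloid classes. Monocyte/macrophage-like cells had 373 and 278 CPM on day 0 (KO and WT), 327 and 289 CPM on day 13, and 299 and 242 CPM on day 21. Microglia-like cells had 110 and 106 CPM on day 0 (KO and WT), 266 and 231 CPM on day 13, and 171 and 142 CPM on day 21. The day 13 libraries were highest among microglia-like cells, with no overlap between days. Mature neutrophil-like cells ranged from 92.1 to 221 CPM and immature ones from 106 to 196 CPM. T-like cells pooled to 40.9 CPM and B-like cells to 16.0 CPM. On day 13 the T-like cells of cluster 6, in which 65.4% of cells carried markers of more than 1 class, had 119.5 CPM in KO and 109 CPM in WT. Those of clusters 5 and 10 had at most 16.1 CPM in either library of that day.

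The shared β chain Csf2rb was highest in basophil/mast-like cells at 361 CPM (278 to 460) and mature DC-like cells at 305 CPM (260 to 357), over pooled libraries. Monocyte/macrophage-like cells had 89.7 and 66.5 CPM on day 0 (KO and WT), 247 and 248 CPM on day 13, and 129 and 291 CPM on day 21. The KO library of day 21 thus stood apart from the other 3 EAE libraries. Microglia-like cells had 42.4 and 43.6 CPM on day 0 (KO and WT), 120.5 and 103 CPM on day 13, and 73.5 and 104 CPM on day 21. All 4 of their EAE libraries were above both day 0 libraries. The second β chain, Csf2rb2, had its highest pooled level in pDC-like cells at 124 CPM (106 to 145), a class in which Csf2ra was near the level of T-like cells at 37.8 CPM. In microglia-like cells Csf2rb2 had 9.86 and 11.98 CPM on day 0 (KO and WT), 32.8 and 23.2 CPM on day 13, and 16.5 and 16.3 CPM on day 21.

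The G-CSF receptor Csf3r was highest in mature neutrophil-like cells at 283 ± 64.8 CPM (SD, n = 5 libraries with at least 50 cells). Microglia-like cells came next at 194 ± 19.1 CPM (n = 6) and held 42.5% of all its UMIs. The mature neutrophil markers found in microglia-like cells would carry at most 1.20% of that level in any library, and at most 2.91% of the level in monocyte/macrophage-like cells. Monocyte/macrophage-like cells had 78.6 ± 19.6 CPM (n = 5) and immature neutrophil-like cells 61.8 ± 2.57 CPM (n = 5). Mature neutrophil-like cells were above microglia-like cells in 5 of 5 shared libraries, and microglia-like above monocyte/macrophage-like cells in 5 of 5. For each of these 2 steps the two-sided exact sign-flip permutation test gave p = 0.0625, the smallest that 5 pairs allow, and 0.375 after Benjamini-Hochberg adjustment over 60 neighbour tests of the 7 genes. With at most 6 shared libraries none of these tests could have passed 0.05 after adjustment, so they say nothing of the order. In the 5 libraries with at least 50 mature neutrophil-like cells the class ranged from 225 to 382 CPM, and microglia-like cells ranged from 163 to 216 CPM over 6 libraries, with no overlap. The KO library of day 0, with 41 mature neutrophil-like cells, had 209 CPM, which lies within the microglial range.

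**Figure D2:**
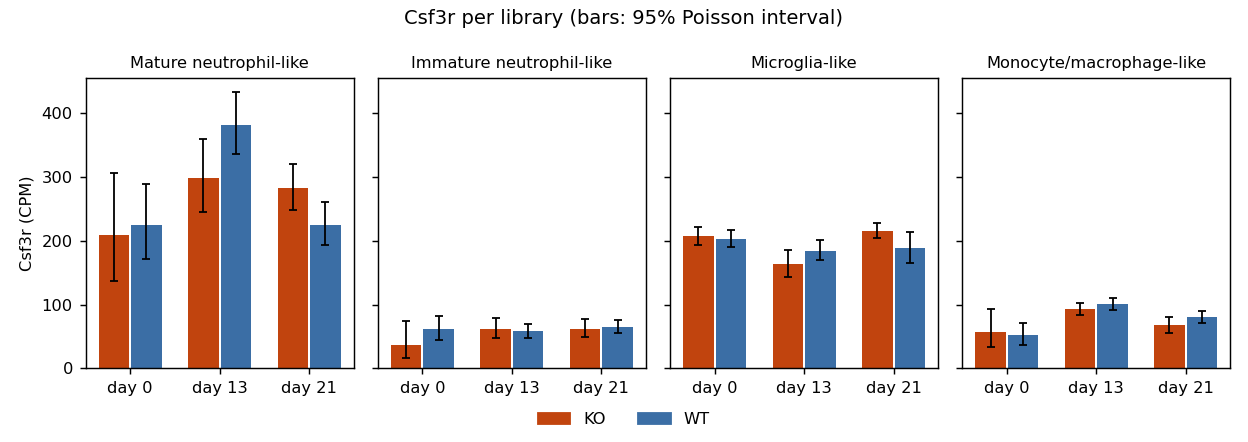
Csf3r in CPM per library in 4 classes of cells, KO left of WT on each day, with exact 95% Poisson intervals that cover counting error only. Mature neutrophil-like cells range from 209 to 382 CPM and microglia-like cells from 163 to 216 CPM, and immature neutrophil-like cells stay at or below 65.1 CPM in all 6 libraries.

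Flt3, the receptor of dendritic-cell development, was a dendritic gene in these cells. Its pooled level was 145 CPM (125 to 167) in cDC1-like, 139 CPM (109 to 175) in mature DC-like, 137 CPM (117 to 159) in pDC-like and 76.4 CPM (64.0 to 90.5) in cDC2-like cells. Cells that passed no gate had 49.8 CPM. Monocyte/macrophage-like cells had 12.3 CPM, granulocyte-monocyte progenitor-like cells 7.04 CPM and microglia-like cells 1.11 CPM, or 22 UMIs in 6085 cells.

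Classes were compared pairwise with edgeR's quasi-likelihood test, with library as a block and Benjamini-Hochberg adjustment over all genes tested. These tests give differences as log2 fold changes of the first class over the second. In monocyte/macrophage-like against microglia-like cells (5 libraries), all 7 genes were tested and all 7 were called. Called here means an adjusted p under 0.05, as 58.0% of the 10798 genes tested were (28.1% higher and 29.8% lower), so the count itself says little about the receptors. Csf2ra was higher by 0.93 (SE 0.158, edgeR adjusted p = 0.000932), Csf2rb by 1.28 (0.152, 0.000121), Csf2rb2 by 1.10 (0.297, 0.0112) and Flt3 by 4.02 (0.376, 2.94e-05). Csf1r fell by 2.74 (SE 0.277, edgeR adjusted p = 4.64e-05), Csf1 fell by 2.33 (0.226, 3.71e-05) and Csf3r fell by 1.05 (0.195, 0.00157). The monocyte/macrophage-like cells thus carried more of the GM-CSF receptor chains, and the microglia-like cells more of the CSF1 receptor, its ligand and Csf3r. The Csf2rb2 call was lost without the WT library of day 13 or of day 21. Csf2rb2 was higher in monocyte/macrophage-like cells in 4 of the 5 libraries. In the WT library of day 0 it went the other way. There it had 2.95 CPM (2 UMIs) in monocyte/macrophage-like and 11.98 CPM in microglia-like cells.

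In mature neutrophil-like against monocyte/macrophage-like cells (5 libraries), 6 of the 7 genes were tested. Csf3r was higher by 2.80 (SE 0.199, edgeR adjusted p = 1.87e-08), while Csf1r fell by 1.45 (0.221, 5.22e-05), Csf2rb2 fell by 1.18 (0.304, 0.00368) and Flt3 fell by 1.74 (0.631, 0.0263). Of all 6907 genes tested there, 27.2% were higher and 34.7% lower. The GM-CSF receptor chains did not pass the test, with 0.26 (SE 0.188) for Csf2ra and −0.06 (0.222) for Csf2rb. Scaling by library totals without TMM moved the median of all genes there to −1.19, against −0.21, and put both chains among 5 lower genes, so no direction is given for them. The Flt3 call was lost without the WT library of day 0 or of day 13 and with Leiden clusters, and Flt3 was not tested without the KO library of day 21. Monocyte markers stood at 19.98% to 55.5% of their own class's level in mature neutrophil-like cells and would carry 18.1% to 110% of the Csf2rb level there. The list includes Chil3 and Plac8, which neutrophils also express, and the part of these transcripts in the Csf2rb level was not tested.

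In immature against mature neutrophil-like cells (5 libraries), Csf3r fell by 2.23 (SE 0.147, edgeR adjusted p = 4.74e-10), Csf2rb fell by 0.96 (0.154, 3.82e-05) and Csf1r fell by 1.19 (0.2203, 0.000176). Lower calls made up 25.6% of the 5480 genes tested. The microglial markers found in these classes would carry a large part of their Csf1r level. Monocyte markers would carry a varying part of the Csf2rb level in mature neutrophil-like cells. The part of such RNA in the falls of Csf1r and Csf2rb was not tested. Csf2ra differed by −0.32 (SE 0.138, edgeR adjusted p = 0.0634) and did not pass. Csf3r thus marked the later stage most clearly, at 209 to 382 CPM in mature and 37.5 to 65.1 CPM in immature cells, with no overlap between libraries.

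The promoter of Csf3r is shown for this difference by stage. It spans 250 bases before to 50 bases after the annotated start at chr4:126024409-126024708 on the plus strand (RefSeq, GRCm38.p6), and the capitals mark a match to GAGGAA, the core bound by PU.1 and other ETS factors. Positions are counted from the start site, and the match begins at −86.
Csf3r: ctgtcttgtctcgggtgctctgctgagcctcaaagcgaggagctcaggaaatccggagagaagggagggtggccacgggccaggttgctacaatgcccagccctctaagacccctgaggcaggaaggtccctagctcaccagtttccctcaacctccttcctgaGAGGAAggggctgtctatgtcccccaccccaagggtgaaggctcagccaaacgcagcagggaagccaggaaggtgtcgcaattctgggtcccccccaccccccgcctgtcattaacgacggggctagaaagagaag
Such a match, on either strand, was present in 28.3% of 27025 promoters of the same length.

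Each of the other dendritic classes had 3 of these receptors called against cDC2-like cells. Of all genes there, 17.7% were called in cDC1-like, 36.0% in pDC-like and 41.7% in mature DC-like cells. In cDC2-like against monocyte/macrophage-like cells 3 were called, as were 19.4% of all genes. The counts are not read as a trait of the receptors, and some calls were lost under DESeq2. In cDC2-like against monocyte/macrophage-like cells (2 libraries with at least 50 cells of both, where 9.06% of 7119 genes were higher and 10.3% lower), Flt3 was higher by 2.22 (SE 0.288, edgeR adjusted p = 6.33e-13). Csf1r fell by 0.80 (SE 0.154, edgeR adjusted p = 4.05e-06) and Csf3r fell by 1.49 (0.273, 1.07e-06). With 2 libraries these p-values lean mostly on the spread that edgeR shares over all genes, and not on a spread between libraries. Csf2ra and Csf2rb did not pass, at 0.03 (SE 0.146) and −0.05 (0.156). The other dendritic classes were compared with cDC2-like cells in libraries with at least 20 cells of each.

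Against cDC2-like cells, pDC-like cells (4 libraries) had far less Csf1r and Csf2ra, which fell by 2.89 (SE 0.311, edgeR adjusted p = 1.99e-09) and 2.94 (0.252, 1.08e-11). Flt3 was higher there by 0.57 (SE 0.212, edgeR adjusted p = 0.0352), while Csf2rb2 at 0.52 (0.244, 0.0963) did not pass. Over all 5005 genes, 16.3% were higher and 19.7% lower. In cDC1-like cells (3 libraries), Csf2rb fell by 0.87 (SE 0.179, edgeR adjusted p = 0.00296) and Csf2rb2 fell by 2.05 (0.302, 0.000214), while Flt3 was higher by 0.83 (0.226, 0.0191). There 7.38% of 4497 genes were higher and 10.4% lower. In mature DC-like cells, which have migratory genes such as Ccr7, Csf2rb was higher by 0.58 (SE 0.201, edgeR adjusted p = 0.0424), Flt3 was higher by 0.86 (0.269, 0.0277) and Csf2ra fell by 1.25 (0.231, 0.00201). In that comparison (3 libraries) 41.7% of 3253 genes were called, 20.7% as higher and 21.0% as lower. Among the dendritic classes, over pooled libraries, Csf2ra was highest in cDC2-like cells and Csf2rb in mature DC-like cells. Csf2ra in cDC1-like against cDC2-like cells, at −0.20, did not pass. The Flt3 calls are the least firm: those in pDC-like cells were lost without the KO library of day 13 or 21 or the WT library of day 13. In cDC1-like cells the Flt3 call was lost without either WT library and the Csf2rb call without that of day 13. In mature DC-like cells Flt3 was lost without the KO library of day 13 or the WT library of day 21, and Csf2rb without any 1 of the 3 libraries. DESeq2 did not call Flt3 in any of the 3 comparisons with cDC2-like cells, nor Csf2rb in cDC1-like or mature DC-like cells.

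**Figure D3:**
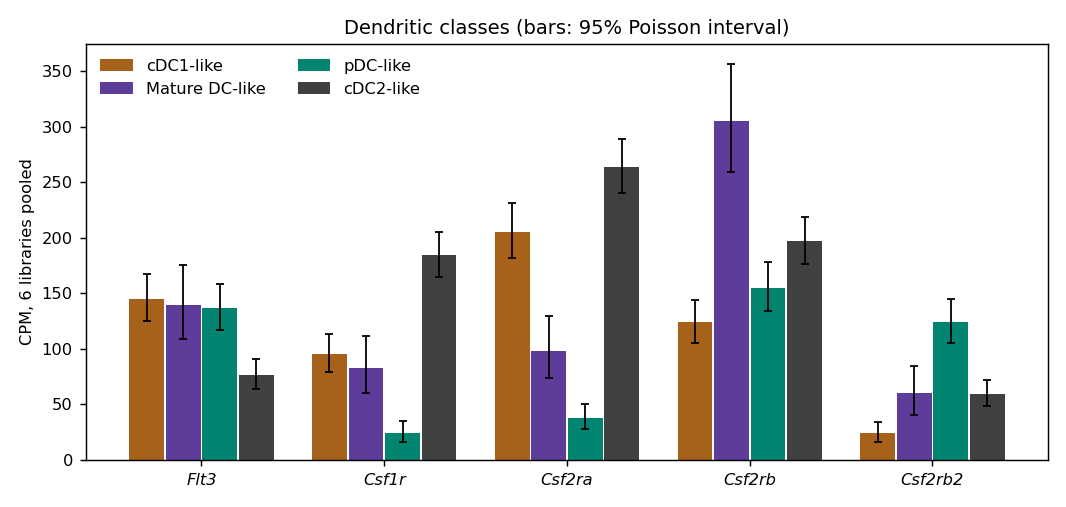
Pooled level in CPM of 5 receptor genes in cDC1-like, mature DC-like, pDC-like and cDC2-like cells, with exact 95% Poisson intervals that cover counting error only. Csf2ra is highest in cDC2-like cells at 264 CPM, Csf2rb in mature DC-like cells at 305 CPM and Csf2rb2 in pDC-like cells at 124 CPM.

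These genes changed over the days in microglia-like cells, the 1 myeloid class with enough cells on day 0 for a test in both genotypes. On day 13 against day 0, with genotype as a covariate and 2 libraries a day, 6 genes were tested and 4 rose, where 17.3% of the 10442 genes tested rose. Csf2rb rose by 1.59 (SE 0.178, edgeR adjusted p = 2.5e-05), Csf1 by 1.58 (0.214, 0.000119), Csf2rb2 by 1.52 (0.236, 0.000348) and Csf2ra by 1.42 (0.136, 7.27e-06). Csf1r fell by 0.63 (SE 0.178, edgeR adjusted p = 0.0164), where 14.5% of genes fell, and Csf3r at −0.01 (0.140, 0.964) did not pass. The ligand Csf1 and the receptor chains Csf2ra, Csf2rb and Csf2rb2 were thus higher on day 13, and the CSF1 receptor was lower. The 4 rises were called whichever library was left out, but the fall of Csf1r was not called without either day 0 library or without the KO library of day 13, where it was −0.39.

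On day 21 against day 0 the same 4 genes were higher, where 17.1% of genes were called and 11.1% rose. Csf2rb was higher by 1.24 (SE 0.179, edgeR adjusted p = 0.000373), Csf1 by 1.21 (0.218, 0.00213), Csf2ra by 0.78 (0.137, 0.00171) and Csf2rb2 by 0.80 (0.248, 0.0426). Csf1r at −0.55 (SE 0.178, edgeR adjusted p = 0.0518) did not pass, while 5.98% of genes fell, and it did pass when the libraries were scaled by totals alone, when no filter on low counts was used, or without the KO library of day 13 or day 21 or the WT library of day 13. Without the KO library of day 0 only Csf2rb kept its call among the 4, and Csf2rb2 also lost it without either day 21 library, under DESeq2, by library totals alone, with Leiden clusters and with the stricter gate. Both days are set against the same day 0 libraries. On day 21 against day 13, Csf2ra was the 1 gene called among the 6 tested with all libraries in the fit, lower by 0.64 on day 21 (log2 −0.64, SE 0.137, edgeR adjusted p = 0.0326), where 1.95% of genes were called and 1.31% fell. That call was lost without the KO or the WT library of day 0, or the KO library of day 13 or day 21, and with DESeq2 or the stricter gate. Without the WT library of day 13, Csf2rb and Csf2rb2 were called lower as well, and without the WT library of day 21 Csf2rb was. Monocyte markers in microglia-like cells rose with EAE, to 3.05% and 2.67% of their own class's level on day 13 (KO and WT) against 0.530% and 0.549% on day 0. At those shares monocytic RNA would carry at most 7.86% of the Csf2rb, 4.79% of the Csf2ra and 7.93% of the Csf2rb2 measured in any library of microglia-like cells.

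**Figure D4:**
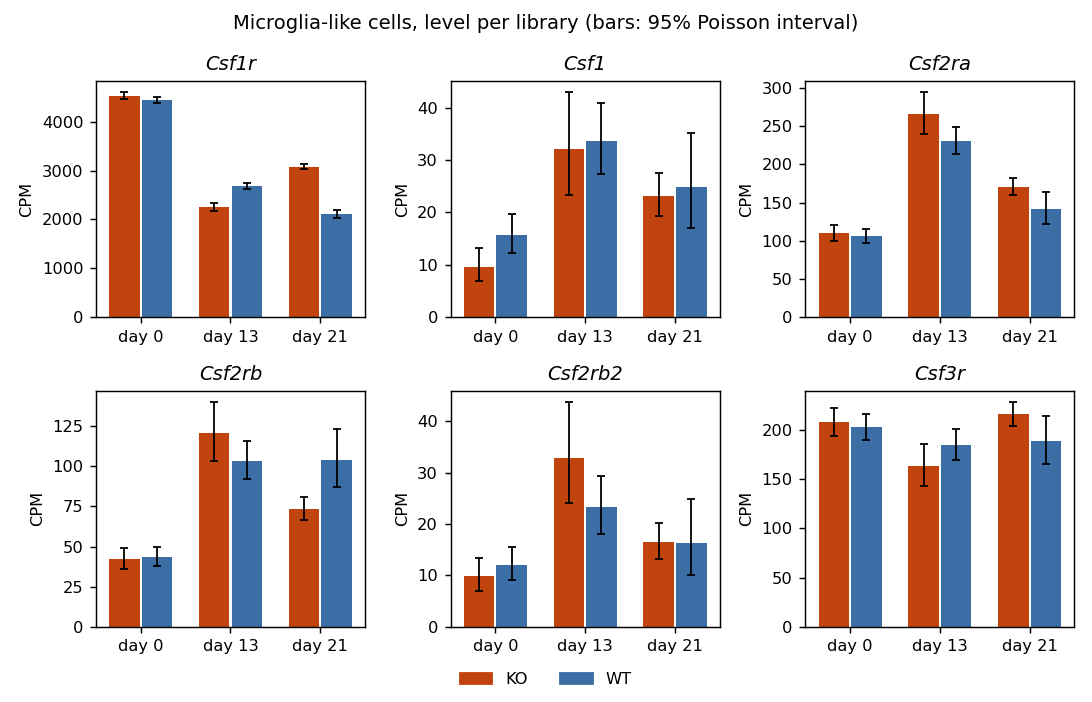
CPM of 6 genes in microglia-like cells, KO left of WT on each day, with exact 95% Poisson intervals that cover counting error only. Csf1, Csf2ra, Csf2rb and Csf2rb2 are higher in all 4 EAE libraries than on day 0, Csf1r is lower, and on day 21 KO cells have 3081 CPM of Csf1r and WT cells 2106 CPM.

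Promoters of 3 of the 4 genes that rose together in microglia-like cells are shown for comparison, each of 300 bases from RefSeq (GRCm38.p6). They lie at chr3:107760420-107760719 for Csf1, chr19:61228369-61228668 for Csf2ra and chr15:78305672-78305971 for Csf2rb2, all on the minus strand and printed 5′ to 3′. Capitals mark GAGGAA on either strand (TTCCTC is its reverse complement) and the STAT motif TTCNNNGAA.
Csf1: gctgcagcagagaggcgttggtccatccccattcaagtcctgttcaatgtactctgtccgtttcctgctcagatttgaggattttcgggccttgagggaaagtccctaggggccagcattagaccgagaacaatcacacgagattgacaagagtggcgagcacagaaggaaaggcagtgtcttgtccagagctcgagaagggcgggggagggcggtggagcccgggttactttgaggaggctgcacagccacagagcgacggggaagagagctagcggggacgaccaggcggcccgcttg
Csf2ra: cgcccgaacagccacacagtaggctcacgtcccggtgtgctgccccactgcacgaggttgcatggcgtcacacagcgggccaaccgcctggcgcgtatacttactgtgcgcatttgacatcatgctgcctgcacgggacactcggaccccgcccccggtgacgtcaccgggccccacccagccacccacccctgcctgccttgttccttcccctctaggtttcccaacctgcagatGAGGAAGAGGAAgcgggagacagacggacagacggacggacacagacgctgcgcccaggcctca
Csf2rb2: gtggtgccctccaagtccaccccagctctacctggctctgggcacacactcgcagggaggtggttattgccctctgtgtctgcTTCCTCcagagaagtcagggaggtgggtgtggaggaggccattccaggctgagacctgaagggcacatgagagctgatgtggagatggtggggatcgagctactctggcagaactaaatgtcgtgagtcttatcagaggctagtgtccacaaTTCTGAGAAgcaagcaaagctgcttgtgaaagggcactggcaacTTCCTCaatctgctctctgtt
Csf2ra held GAGGAA as an adjacent pair, beginning at −14 and −8. Csf2rb2 held it at −167 and 30 and held TTCNNNGAA at −15, a motif found in 8.47% of all promoters. Neither these nor the C/EBP motif TTGCNNAA, found in 10.8%, occurred in the Csf1 window. No searched motif was common to the 3 windows, which says nothing of the factors that act there.

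In monocyte/macrophage-like, mature and immature neutrophil-like cells only days 21 and 13 could be compared, in 4 libraries each. None of the tested genes passed edgeR's test there, 7, 4 and 5 genes in number, while 3.29%, 3.68% and 2.29% of all genes did (in mature neutrophil-like cells 0.622% as higher and 3.06% as lower). At an unadjusted p under 0.05 there were 4 values, all lower on day 21. Over all genes, in either direction, 1645 of 9518 in monocyte/macrophage-like and 508 of 4018 in mature neutrophil-like cells were under it. The 4 values are therefore not read as a trait of the receptors. Csf1r in mature neutrophil-like cells differed by −1.17 (SE 0.383, edgeR adjusted p = 0.0584). In monocyte/macrophage-like cells Csf1r differed by −0.58 (SE 0.143, edgeR adjusted p = 0.0769), Csf2rb2 by −0.76 (0.223, 0.123) and Csf3r by −0.43 (0.165, 0.235). With these cells grouped by Leiden cluster instead, Csf1r, Csf2rb2 and Csf3r passed as lower on day 21, and with a minimum of 20 cells Csf1r did. Over all genes, 471 of 9915 passed as lower by Leiden cluster and 293 of 9290 with 20 cells. Both of those fits also held the day 0 libraries, 6 libraries against 4, so the grouping of the cells and the number of libraries changed together.

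The comparison of KO with WT gave no call among the tested genes of the 7 in any of the 4 myeloid classes, when the days served as replicates. Enough counts for a test were present for 6 of them in microglia-like and 7 in monocyte/macrophage-like cells. In mature and immature neutrophil-like cells 4 and 5 were tested. In microglia-like cells 0 of 10442 genes passed edgeR's test, with 416 at an unadjusted p under 0.05 and 0 by DESeq2, so the count of 0 for the receptors is also that of all genes (0.0% called). In monocyte/macrophage-like cells 0 of 9518 genes passed, with 260 at an unadjusted p under 0.05, and in immature neutrophil-like cells 0 of 6377, with 267, and DESeq2 called 0 in both. In mature neutrophil-like cells 1 of 4018 genes passed (0.0249%), none of them a colony-stimulating factor receptor. Csf1r, the 1 gene with a seed match, differed in microglia-like cells by 0.07 (SE 0.146, edgeR adjusted p = 0.9995), and its sign turned to −0.12 without either day 21 library. Csf1 differed there by −0.32 (SE 0.180). In monocyte/macrophage-like cells Csf2rb differed by −0.58 (SE 0.264) and Csf1 by −0.96 (0.405), both with an edgeR adjusted p of 0.9998. Csf1r differed by 0.90 (SE 0.382, edgeR adjusted p = 0.9999) in mature and by 0.71 (0.241, 0.919) in immature neutrophil-like cells, where microglial markers would carry at least 63.4% of its level. Leaving out any 1 of the 6 libraries gave 19 to 175 called genes in microglia-like cells, and again none of the tested genes of the 7. An effect that changes with day adds to the spread of this test.

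The libraries of each day were therefore also set side by side, as ratios of KO to WT with exact 95% intervals that cover counting error only. Over the 7 genes, 5 classes and 3 days, 95 ratios could be formed, of which 14 had an interval above 1 and 12 one below 1. The share of all genes with such intervals was not computed, so these counts cannot be read as particular to the 7 genes. Counting intervals leave out the spread between mice, so these are values of 2 libraries and not calls.

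Csf2rb on day 21 departed from a ratio of 1 in more classes than any other of the genes on any day. In monocyte/macrophage-like cells the KO library had 129 CPM (216 UMIs) and the WT library 291 CPM (1107 UMIs), a ratio of 0.444 (0.382 to 0.514). Of all genes with at least 10 CPM in either library, 8.02% were lower in KO by 1.5-fold or more. In cDC2-like cells the KO library had 118 CPM and the WT library 282 CPM, a ratio of 0.420 (0.304 to 0.573), where 19.3% of genes were as much lower. Microglia-like cells gave 0.706 (0.579 to 0.865), mature neutrophil-like cells 0.584 (0.401 to 0.844) and immature neutrophil-like cells 0.654 (0.457 to 0.920). In the neutrophil classes 29.6% and 20.9% of genes were lower by 1.5-fold or more, so differences of that size were common in those pairs. The KO library was lower in 11 of 11 classes with at least 20 cells in both libraries, and the interval lay below 1 in 8 of them. All 11 ratios come from the same KO and WT library, and the share of all genes with such a pattern was not computed. Monocyte/macrophage-like cells were 7.02% of the KO and 15.1% of the WT cells on day 21, and the part of their RNA in the other classes was not tested. In T-like cells, at 10.96 CPM in KO and 47.0 CPM in WT, and in B-like cells, at 10.5 and 33.4 CPM, the monocyte markers present would carry 59.1% to 104% of the level. In cDC2-like cells on day 21 they would carry 23.7% in KO and 26.3% in WT.

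On day 13 the same ratio of Csf2rb was 0.995 (0.914 to 1.08) in monocyte/macrophage-like cells, from 247 and 248 CPM in KO and WT. The difference between the ratios of days 13 and 21 was not tested. The α chain Csf2ra went the other way on day 21 in 3 classes. Its ratios were 1.23 (1.10 to 1.38) in monocyte/macrophage-like, 1.28 (1.003 to 1.62) in cDC2-like and 1.20 (1.02 to 1.41) in microglia-like cells. In immature neutrophil-like cells the Csf2ra ratio was 0.824 (0.681 to 0.992). Over the 11 classes with at least 20 cells in both libraries, Csf2ra was lower in KO in 5 and higher in 6. The Csf2ra ratio had been above 1 on day 13 as well, at 1.13 (1.05 to 1.22) in monocyte/macrophage-like and 1.15 (1.01 to 1.31) in microglia-like cells. Csf2rb2 had a ratio of 0.572 (0.401 to 0.799) on day 21 in monocyte/macrophage-like cells. Over the whole class, the KO library of day 21 thus had less of the β chain and more of the α chain than WT in monocyte/macrophage-like, cDC2-like and microglia-like cells. By cluster, the Csf2ra ratio of monocyte/macrophage-like cells was 1.11 (0.945 to 1.306) in cluster 7 and 1.297 (1.03 to 1.627) in cluster 8. For microglia-like cells it was 1.327 (1.076 to 1.645) in cluster 1 and 1.066 (0.7505 to 1.565) in cluster 2. With cells grouped by Leiden cluster instead, the monocyte/macrophage-like ratio was 1.1.

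**Figure D5:**
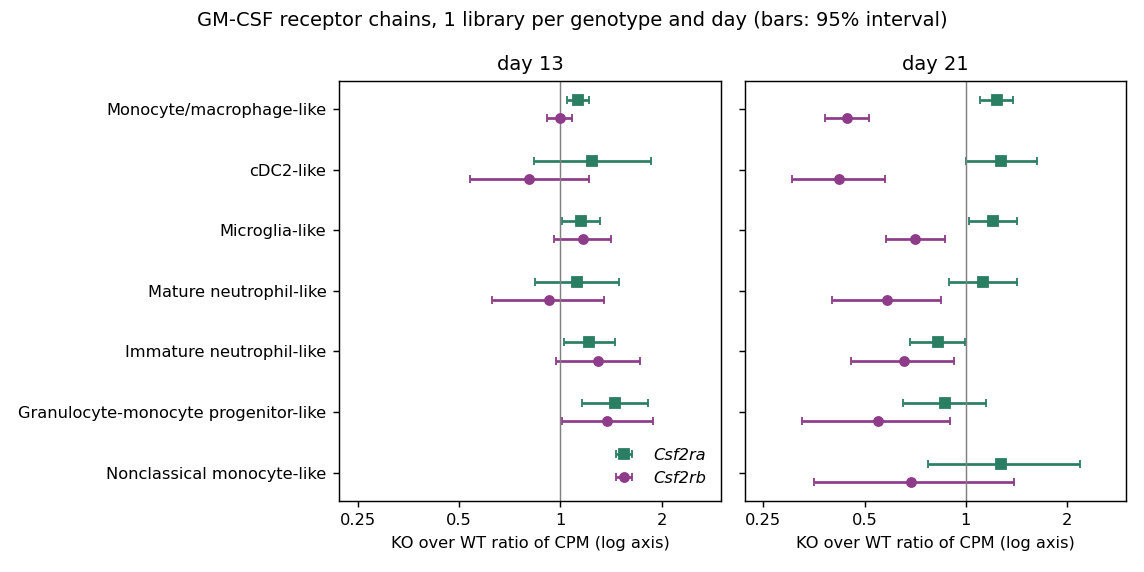
Ratio of KO to WT CPM of Csf2ra (squares) and Csf2rb (circles) on days 13 and 21 in classes with at least 20 cells in both libraries, on a log axis, with exact 95% intervals that cover counting error only. Nonclassical monocyte-like cells have a value on day 21 only. Csf2rb lies at 0.444 in monocyte/macrophage-like cells on day 21 and at 0.995 on day 13, while Csf2ra lies at 1.23 and 1.13.

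The makeup of the class was checked by cluster, since monocyte/macrophage-like cells of the 2 libraries could differ in state. Cluster 7, led by Vcan, Plcb1 and Cxcl10, held 51.5% of the class in the KO and 58.4% in the WT library of day 21. Within it Csf2rb had 127 CPM in KO and 372 CPM in WT, a ratio of 0.342 (0.273 to 0.423). In cluster 8, led by Saa3, Ly6i and Arg1, the values were 202 CPM in KO and 238 CPM in WT, a ratio of 0.850 (0.636 to 1.12). Cluster 15, led by Prss34, Mcpt8 and Cpa3, which are basophil and mast cell genes, gave 0.358 (0.197 to 0.617). Cluster 11, led by Cd209a, Gcsam and Plet1 and holding more cDC2-like cells than cells of any other class, gave 0.701 (0.419 to 1.15). The lower Csf2rb of the KO library was thus as large within cluster 7 as over the class, and the interval in cluster 8 included 1. After thinning to 1490 UMIs, 15.2% (11.1 to 20.1) of KO and 33.8% (30.6 to 37.1) of WT cells of the class held a Csf2rb UMI on day 21, and 46.6% and 60.6% did unthinned. In B-like cells the thinned shares were 1.68% in KO and 2.26% in WT.

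Csf1r in microglia-like cells changed the sign of its genotype difference between days. KO cells stood to WT cells at 1.02 (1.002 to 1.04) on day 0, at 0.838 (0.804 to 0.874) on day 13 and at 1.46 (1.40 to 1.52) on day 21. Most microglia-like cells of days 13 and 21 lay in cluster 1, led by Cxcl13, Hcar2 and Ccl12, or cluster 2, led by Gas6, Lpl and Fcrls. On day 21 the class was 29.6% cluster 1 in the KO library and 72.7% in the WT library, and 65.5% cluster 2 in KO and 20.2% in WT. Within cluster 1 Csf1r had 2776 CPM in KO and 2141 CPM in WT, a ratio of 1.30 (1.23 to 1.37). Within cluster 2 it had 3320 and 2627 CPM, a ratio of 1.26 (1.16 to 1.38). The KO library was higher in both clusters, and the difference over the class was larger than in either. Csf2rb on day 21 had 76.1 CPM in KO and 108 CPM in WT within cluster 1, a ratio of 0.707 (0.538 to 0.932), and 69.3 and 80.6 CPM within cluster 2, a ratio of 0.859 (0.525 to 1.5). On day 13, when 94.1% of the KO and 88.9% of the WT class lay in cluster 1, the Csf1r ratio there was 0.856 (0.820 to 0.894). The parts of cell state and of genotype in these values cannot be told apart with 1 library each.

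For Csf3r in mature neutrophil-like cells the ratio was 0.782 (0.619 to 0.982) on day 13, with 299 CPM in KO and 382 CPM in WT, and 1.26 (1.03 to 1.54) on day 21, with 283 and 225 CPM. These cells lay mostly in cluster 12, led by Gm5483, Hbb-bs and Prok2, and cluster 3, led by Ly6g, Ceacam10 and Ltf, which had less Csf3r. On day 21 cluster 12 held 59.2% of the class in KO and 37.0% in WT, and cluster 3 held 40.2% in KO and 58.3% in WT. The ratios of day 21 within them were 1.16 (0.898 to 1.503) and 0.895 (0.625 to 1.28), so neither interval excluded 1. On day 13 cluster 12 held 57.3% of the class in KO and 72.9% in WT, and the ratio was 0.724 (0.542 to 0.958) within it and 1.64 (0.837 to 3.22) in cluster 3. Csf1r in the same cells had 184 CPM in KO and 87.7 CPM in WT on day 13. There the microglial markers stood at 5.92% of their own class's level in KO and 2.07% in WT, and would carry 72.4% and 63.4% of the Csf1r level. For Flt3 in monocyte/macrophage-like cells the ratio on day 13 was 0.561 (0.342 to 0.899), from 28 and 55 UMIs in KO and WT, and on day 21 it was 1.36 (0.837 to 2.19). Of the 30 KO UMIs of day 21, 21 came from 26 cells of cluster 11, which was 9.85% of the class in KO and 4.25% in WT. Within cluster 7 the day 21 ratio was 0.417 (0.106 to 1.21).

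Among the ligands of these receptors and their sister cytokines, Flt3l and Kitl were the only ones besides Csf1 with more than 65 UMIs in the CD45+ cells. Csf2, which encodes GM-CSF, had 65 UMIs in all, 24 in cells of no gate, 22 in mixed cells and 14 in T-like cells. Csf3 and Il3 had 0 UMIs and Il5 had 1. Il34 had 15, of which pDC-like cells held 9. Flt3l, the ligand of Flt3, had 1391 UMIs and its largest share in T-like cells, at 488 UMIs or 47.5 CPM. Kitl, the ligand of the related receptor Kit, had 304 UMIs, of which 210 were in microglia-like cells at 10.6 CPM. Among receptors of the same families, Il3ra, the α chain that pairs with either β chain, had 50.1 CPM in monocyte/macrophage-like cells. Kit reached 35.5 CPM in cDC1-like cells, and Il5ra had 53 of its 60 UMIs in B-like cells.

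Genes that act with these receptors were counted from lists of 45 genes in all (7 ligands, 5 further receptors, 20 genes of signalling and feedback, 13 transcription factors). In microglia-like cells on day 13 against day 0, 35 of the 45 were tested, 8 rose and 6 fell, with a median log2 change of 0.25 against −0.02 over all genes, of which 17.3% rose and 14.5% fell. Pim1, a survival kinase induced by STAT5, rose by 3.87 (SE 0.280, edgeR adjusted p = 7.73e-07). The cytokine-signalling inhibitors Socs1 and Socs2 rose by 2.67 (SE 0.294) and 2.64 (0.564), and Il3ra by 2.15 (0.335). The cyclin gene Ccnd2 rose by 1.60, the transcription factor genes Cebpb and Runx1 by 0.87 and 0.82, and the adaptor gene Grb2 by 0.42. Klf4 fell by 4.78 (SE 0.406, edgeR adjusted p = 2.69e-06), Egr2 fell by 2.74, Cebpa fell by 1.504, Maf fell by 1.26 and Socs3 fell by 0.61. Klf4 and Egr2 are early-response genes as well as myeloid factors, and Maf is a macrophage factor. Spi1, which encodes PU.1, had a log2 change of 0.02 (SE 0.140) and did not pass. On day 21 against day 0, 7 rose and 6 fell of the 35, where 11.1% of all genes rose and 5.98% fell. Pim1 rose by 2.55, Socs2 by 2.45, Ccnd2 by 2.14, Il3ra by 1.64, Socs1 by 1.43, Cebpb by 0.86 and Tyrobp, the adaptor DAP12, by 0.49. Klf4 fell by 3.27, Egr2 by 1.33, Socs3 by 1.20, Cebpa by 1.02 and Bcl2l1 by 0.67.

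On day 21 against day 13, Socs1 and Pim1 fell by 1.24 and 1.32 in microglia-like cells and Maf rose by 0.98. In monocyte/macrophage-like cells Irf4 rose by 2.65 and Klf4 by 0.91 of 35 tested, and in mature neutrophil-like cells Socs1 fell by 1.65, Socs3 by 1.55 and Id2 by 1.42 of 22 tested. Pim1 fell by 0.92 in immature neutrophil-like cells, of 26 tested. Over all genes 0.642% rose and 1.31% fell in microglia-like cells, and 2.29% to 3.68% were called in the other 3. Of the lists, 0 genes passed in KO against WT in any of the 4 classes. In immature against mature neutrophil-like cells, 18 of 26 tested were lower and 1 was higher, with a median of −0.85 against 0.01 over all genes, of which 25.6% were lower and 25.9% higher. The higher gene was Cebpe, a factor of granule formation, at 2.79, but Cebpe is itself a marker of the immature gate, so its difference was set by the choice of cells. The largest fall of the 18 was in Socs3, the inhibitor of G-CSF signalling, at −2.92. Monocyte/macrophage-like against microglia-like cells had 19 higher and 10 lower of 36, with a median of 0.60 against −0.05 over all genes, of which 28.1% were higher and 29.8% lower.

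Across 48 sums of class and library with at least 50 cells, the genes whose log2(CPM + 1) followed each receptor most closely were named by Pearson's r, as a description that rests on class identity and shared libraries. For Csf1r these were Trem2 (0.962), Itgb5 (0.941) and Cx3cr1 (0.921), of which Cx3cr1 is among the gating markers. For Csf1 they were Adora3 (0.797), Cryba4 (0.773) and Efemp2 (0.761), and for Csf2ra they were Rab32 (0.877), Igsf6 (0.873) and Rsu1 (0.872). Csf2rb was followed by Ftl1 (0.885), Ube2l6 (0.850) and Spi1 (0.841). Csf2rb2 was followed by Gpr35 (0.796), Csf2rb itself (0.789) and Stat2. Csf3r was followed by Mtus1 (0.891), C5ar1 and Abcd2, and Flt3 by Rnd3 (0.821), Ffar4 and Clec9a, a marker of the cDC1 gate. The chains Csf2ra and Csf2rb had an r of 0.769 with each other.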

How the data were processed

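The authors deposited 1 matrix per library whose values are unnormalized UMI counts, whole in every entry. Cell Ranger 2.0.2 and the build mm10 are named, per the submitters' processing notes. Of 20030 barcodes, 23 with over 10% mitochondrial counts were removed and 20007 kept, and no doublet caller was run. Cells were gated from 17 marker lists, with at least 2 markers of a class (3 for microglia) and a score of at least 0.5 of the median score of cells that had detected most of that list. Cells with at least 3 markers of a second class at that score were set aside as mixed, unless the 2 classes were related in lineage. Related pairs included monocyte/macrophage with cDC2, microglia with border macrophage, mature with immature neutrophil, and T with NK. Markers shared between classes, such as Chil3 and Plac8, were left out of this step. How cells are scored was decided after seeing the data, and the members and lists were chosen with earlier results of these data known. Leiden clusters (scanpy 1.11.5, 2000 variable genes without the members, resolution 1.0) served as an alternative.

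Counts were summed per library and class with at least 50 cells (20 for the dendritic classes) and tested with edgeR 4.0.16 (R 4.3.3; TMM scaling, quasi-likelihood, Benjamini-Hochberg adjustment over all genes passing its expression filter). SE is the fold change over the root of F. As each group had 1 library, days served as replicates for genotype and genotypes for day. p-values therefore rest on the spread between libraries together with an estimate of spread that edgeR shares over all genes. Where libraries are few, as in cDC2-like against monocyte/macrophage-like cells, they lean mostly on that shared estimate. Poisson, conditional and binomial intervals are exact, at 95%, and cover counting error only. The text names the members, the genes of the lists that passed in the day comparisons (1 counted gene is not reported here by name), and the 3 genes most like each member. Alternatives were DESeq2 1.42.0, totals without TMM, no filter, a stricter gate, Leiden clusters, 20 cells, and each library left out. Median depth was 3019 to 4368.5 UMIs per cell by library. In bulk sums of a class, fewer expressing cells and less RNA per cell cannot be told apart.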

Additional observations from a re-analysis of the deposited data

Results flagged for a closer look

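In 3 cases the KO library lay above its WT library on one day and below it on another, with intervals that excluded 1 on both sides. Each value compares 1 library with 1, and the difference between days was not tested. Csf1r in microglia-like cells had a KO to WT ratio of 1.022 on day 0, 0.8381 on day 13 and 1.463 on day 21. Csf3r in mature neutrophil-like cells had one of 0.7816 on day 13 and 1.259 on day 21, while on day 21 the intervals within its clusters 12 and 3 both included 1 (ratios of 1.159 and 0.8954) and cluster 12 held 59.15% of the class in KO and 37.04% in WT. Csf2ra in immature neutrophil-like cells had one of 1.22 on day 13 and 0.8237 on day 21. For Csf1r in microglia-like cells on day 21, the ratios within clusters 1 and 2 were 1.297 and 1.264. Cluster 1 held 29.55% of that class in KO and 72.67% in WT. In the neutrophil classes 15.4% to 44.2% of all genes differed by 1.5-fold or more between the same libraries. In microglia-like cells 2.45% did on day 0, 8.08% on day 13 and 15.2% on day 21.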

How the results depend on the processing

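No paired analysis was possible because each genotype and day is 1 library and the labels give no numbers by which animals or samples could be matched, so the blocks were the day (KO against WT), the genotype (days) and the library (classes). Of the recomputed fold changes of the receptor genes, 200 kept their direction and call over the alternatives other than leaving out a library and 17 lost the call, and of those with 1 library left out 142 kept both, 27 lost the call and 2 turned, both of Csf1r in KO against WT microglia-like cells (−0.1225 and −0.1237, in a range up to 0.2447). With 1 library left out the genes called numbered 19 to 175 for KO against WT in microglia-like cells, 1576 to 4120 for day 13 against day 0, 813 to 2431 for day 21 against day 0, 61 to 881 for day 21 against day 13, and 403 to 640 for cDC1-like against cDC2-like cells. Why values moved was not tested.

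Genes called in KO against WT numbered 94 without a filter, 4 by Leiden cluster and 1 by the stricter gate in microglia-like cells, 5 by Leiden cluster in monocyte/macrophage-like cells, and 11, 2 and 32 under those 3 settings in immature neutrophil-like cells. In mature neutrophil-like cells the count was 0 under each of 7 alternatives, among them the fit without a day block. With DESeq2 the day comparisons in microglia-like cells gave 1545 genes (day 13 against day 0), 798 (day 21 against day 0) and 95 (day 21 against day 13). Totals without TMM gave 2840 for day 21 against day 0, and no filter gave 656 for day 21 against day 13. Either of these settings added 1 lower receptor gene on day 21 against day 0, and DESeq2 and the stricter gate left 0 lower on day 21 against day 13.

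For day 21 against day 13 in monocyte/macrophage-like cells, DESeq2 gave 138 genes, no filter 181, Leiden clusters 954, the stricter gate 163 and 20 cells 542. Leiden clusters made 3 of the receptor genes lower there and 20 cells made 1, both in fits of 6 libraries in place of 4. In mature neutrophil-like cells the counts were 25 with DESeq2, 9 without TMM, 61 without a filter, 17 by Leiden cluster and 56 at 20 cells. In immature neutrophil-like cells they were 12 with DESeq2, 67 without TMM, 629 by Leiden cluster, 453 by the stricter gate and 68 at 20 cells. Leaving out a library was not run for these, since 4 libraries leave 1 residual degree of freedom, and the cDC2 comparison with monocyte/macrophage-like cells rests on 2 libraries.

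Among class comparisons, mature neutrophil-like against monocyte/macrophage-like cells had 2 receptor genes higher by Leiden cluster and 5 lower without TMM. cDC2-like against monocyte/macrophage-like cells had 2 higher at 20 cells, and 360 genes with DESeq2 or 2414 by Leiden cluster. The dendritic alternatives were chosen after seeing the data. DESeq2 left 0 receptor genes higher in cDC1-like, pDC-like and mature DC-like cells, 1 lower in cDC1-like cells, and 292, 1185 and 848 genes called. Without TMM there were 2 higher in pDC-like and 0 in mature DC-like cells. Without a filter there were 4 lower in cDC1-like cells, 0 higher in pDC-like cells, and 0 higher and 2 lower in mature DC-like cells.

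Levels without ribosomal and mitochondrial genes were 230.0 CPM for Csf3r in microglia-like cells, 467.9, 368.5 and 100.8 CPM for Csf1r, Csf2ra and Csf3r in monocyte/macrophage-like cells, and 67.81 CPM for Csf3r in immature neutrophil-like cells. By Leiden cluster, Csf2rb and Csf3r stood at 124.6 and 411.6 CPM in mature neutrophil-like cells, Csf1r and Csf3r at 23.76 and 72.79 CPM in immature ones, and Csf1r was 18.62 CPM there by the stricter gate. The day 21 ratios of KO to WT by Leiden cluster were 0.6151 for Csf2rb in cDC2-like cells and 1.1 for Csf2ra in monocyte/macrophage-like cells, and the other 22 ratios moved less than their counting intervals.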
